A study of Homo sapiens with 5 samples.

Results

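The genes described here are 39 genes of glycolysis and of the cellular response to low oxygen, chosen by name as a fixed list and matched by Ensembl ID among the 58812 gene IDs of a table of read counts. All 39 were found. They are taken as 16 glycolytic enzymes and, apart from these, 23 other members, made up of 2 glucose transporters, 4 regulators of glycolytic flux, 15 further hypoxia genes and 2 hypoxia-inducible transcription factors. The RNA came from C4-2B, a castration-resistant prostate cancer cell line derived from LNCaP, in which HOXB13, a homeobox protein that marks the prostate lineage, carried the substitution of lysine 13 by alanine (K13A) or not. The groups were the K13A clone C4K13A with 2 libraries, the K13A clone C5K13A with 1 library, and parental C4-2B cells with 2 libraries, all grown in medium that the labels name only as C4-2B media, with no oxygen level or time given. Each K13A group is 1 clone, the labels do not say how the clones were made, and nothing says whether the libraries of a group came from separate cultures, so each p-value reflects no more than how these libraries vary, which may be technical.

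Glycolysis turns glucose into pyruvate in the cytosol, and lactate dehydrogenase turns pyruvate into lactate. When oxygen falls, prolyl hydroxylases no longer mark the alpha subunits HIF1A and EPAS1 for destruction by the VHL ubiquitin ligase, and the stabilised factors bind the core sequence ACGTG or GCGTG near their targets, among them glucose transporters, most glycolytic enzymes, the mitophagy receptors BNIP3 and BNIP3L, and the carbonic anhydrase CA9. HIF activity is therefore set largely at the level of the protein, which read counts do not measure.

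KDM3A, ANKRD37 and ALDOC are members that lay lower in every K13A library than in both parental libraries and whose promoter holds the core sequence. PFKM, PFKP, SLC2A1, P4HA2 and MXI1 also lay lower, but their promoters hold no such core and are not printed. LDHA is the enzyme that differed most between the parental libraries. The promoters of KDM3A, ANKRD37, ALDOC and LDHA are printed. Each is the 250 bases before the first start listed for the gene in RefSeq (GRCh38.p14), read 5′ to 3′ on the gene's own strand. In GENCODE v29 these genes start further upstream, so the windows of KDM3A, ANKRD37 and ALDOC lie inside the gene, and that of LDHA partly. Other starts of the members were not searched. Capitals mark ACGTG or GCGTG on either strand, where CACGTG is a match on both strands that overlap.
KDM3A (chr2:86441121-86441370, plus strand): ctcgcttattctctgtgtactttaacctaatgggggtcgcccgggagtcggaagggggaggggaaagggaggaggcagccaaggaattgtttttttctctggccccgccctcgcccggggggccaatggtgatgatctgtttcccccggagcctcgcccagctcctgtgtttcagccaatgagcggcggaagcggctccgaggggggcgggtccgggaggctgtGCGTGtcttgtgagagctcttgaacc
ANKRD37 (chr4:185396591-185396840, plus strand): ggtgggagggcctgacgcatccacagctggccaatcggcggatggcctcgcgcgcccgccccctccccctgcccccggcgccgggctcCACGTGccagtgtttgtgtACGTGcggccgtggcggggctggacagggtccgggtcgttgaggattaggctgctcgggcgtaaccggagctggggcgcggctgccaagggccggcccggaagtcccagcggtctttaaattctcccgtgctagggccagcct
ALDOC (chr17:28576896-28577145, minus strand): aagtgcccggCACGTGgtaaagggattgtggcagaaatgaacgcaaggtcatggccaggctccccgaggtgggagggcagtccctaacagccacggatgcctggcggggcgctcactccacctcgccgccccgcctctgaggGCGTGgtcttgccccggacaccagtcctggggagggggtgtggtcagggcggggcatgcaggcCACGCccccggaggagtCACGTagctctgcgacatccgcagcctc
LDHA (chr11:18394313-18394562, plus strand): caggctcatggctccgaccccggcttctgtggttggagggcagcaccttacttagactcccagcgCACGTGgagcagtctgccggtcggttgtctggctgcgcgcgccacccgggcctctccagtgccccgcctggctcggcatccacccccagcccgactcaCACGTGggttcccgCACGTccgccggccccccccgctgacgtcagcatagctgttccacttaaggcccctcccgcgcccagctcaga
RefSeq promoters were matched for 37 of the 39 members, all but SLC2A3 and BNIP3L. ACGTG or GCGTG occurred on either strand in 25 of the 37, 67.6%, and in 43.2% of the 35116 promoters of the same length in the table. It occurred in 9 of 16 enzymes and in 16 of the 21 other members with a promoter. Of the 9 members with a promoter whose K13A libraries all lay below both parental libraries, ADM included, 4 held it. That is 44.4%, near the 43.2% of all promoters. CACGTG occurred in 6 of the 37 members and in 6.345% of all promoters. The members include known HIF targets, the table includes promoters of noncoding genes, and a match in these letters is no binding site.

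Totals ran from 43190276 to 57282373 counts per library. The luminal prostate markers KLK3, KLK2, TMPRSS2, FOLH1, HOXB13, KRT8 and KRT18 summed to between 4051 and 4911 CPM (read counts scaled to a common library size with TMM factors) in the K13A libraries and to 5852 and 4027 CPM in the parental ones, and HOXB13 counts cannot show the substitution. Sums of 5 markers each were 5.09 to 6.17 CPM in the K13A libraries and 6.89 and 6.99 CPM in the parental libraries for fibroblasts, at most 0.325 and 0.276 CPM for leukocytes, and 2.65 to 4.35 CPM and 5.65 and 5.71 CPM for endothelium. Sums of 3 markers were at most 0.213 and 0.512 CPM for basal epithelium and 2.32 to 2.56 CPM and 2.84 and 3.05 CPM for neuroendocrine cells, with 1 fibroblast and 1 leukocyte marker at 0 in every library. The parental libraries stood apart from each other: mitochondrial ribosomal RNA made up 65.4, 353 and 658 CPM in C4K13A libraries 1 and 2 and C5K13A, against 29.03 CPM in parental library 1 and 1723 CPM in parental library 2. Its part in the results below was not tested beyond a fit with this split as a covariate.

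None of the 37 members that passed the filter on low counts was called between all K13A libraries and parental cells, by edgeR's quasi-likelihood test with Benjamini-Hochberg adjustment over all genes tested and a threshold of 0.05 (0.203% of 20649 genes were called). At an unadjusted p under 0.05 there were 1 higher and 5 lower members, where 11% of all genes lay in either direction. DESeq2 called 2 members, BNIP3L and KDM3A, both lower (2.69% of all genes), and limma-voom called 0 (0.0533%). CA9 and ADM did not pass the filter. In bulk RNA, fewer cells that express a gene and less RNA per cell cannot be told apart. The median log2 fold change was 0.06 over the 16 enzymes and -0.19 over the 21 other members tested, beside -0.0047 over all genes.

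The main enzymes of glycolysis were highly expressed in every library, and for 7 of the 16 every K13A library lay between the parental libraries. GAPDH, which oxidises glyceraldehyde 3-phosphate, had 1672 and 1639 CPM in the C4K13A libraries and 1613 CPM in C5K13A, against 1335 and 2062 CPM in parental libraries 1 and 2. ENO1, the enolase that makes phosphoenolpyruvate, had 1429 and 1378 CPM in the C4K13A libraries and 1403 CPM in C5K13A, against 1133 and 1666 CPM in parental cells. LDHA, the muscle-type lactate dehydrogenase subunit (ENSG00000134333), had 595 and 492 CPM in the C4K13A libraries and 473 CPM in C5K13A, against 247 and 682 CPM in parental cells. In each of these genes the parental libraries were the lowest and the highest of the 5. The same held for ALDOA, the main aldolase, TPI1, triosephosphate isomerase, PGK1, phosphoglycerate kinase, and PGAM1, phosphoglycerate mutase, which completes the 7, a pattern that 10.1% of all genes shared. Over the K13A libraries and over the parental libraries LDHA averaged 520.1 ± 65.6 CPM and 465 ± 308 CPM (SD, n = 3 and n = 2), and ENO1 1403 ± 25.4 CPM and 1400 ± 377 CPM.

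The spread between the parental libraries ran largely in 1 direction across the enzymes. Parental library 2 was above parental library 1 in 15 of 16 enzymes, PFKM being the exception, and in 14 of the 21 other members tested, where 49.9% of all genes were. The median ratio of parental library 2 to parental library 1 was 1.52-fold over the enzymes, with a range from 0.919 in PFKM to 2.76 in LDHA. It was 1.22-fold over the other members and 1.00 over all genes. TMM scaling sets this last value and the 49.9% nearly in advance, so they do not show a spread particular to the enzymes. Over all counted genes, too, the parental libraries were the least alike of all pairs. Their mean chi-square per gene was 144.5, against 45.8 for the C4K13A libraries. The 16 enzymes summed to 10374 and 10113 CPM in the C4K13A libraries and 10178 CPM in C5K13A, against 7569.6 and 11864 CPM in parental libraries 1 and 2. The 3 K13A libraries were thus close together, and the parental libraries lay on either side of them.

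**Figure D1:**
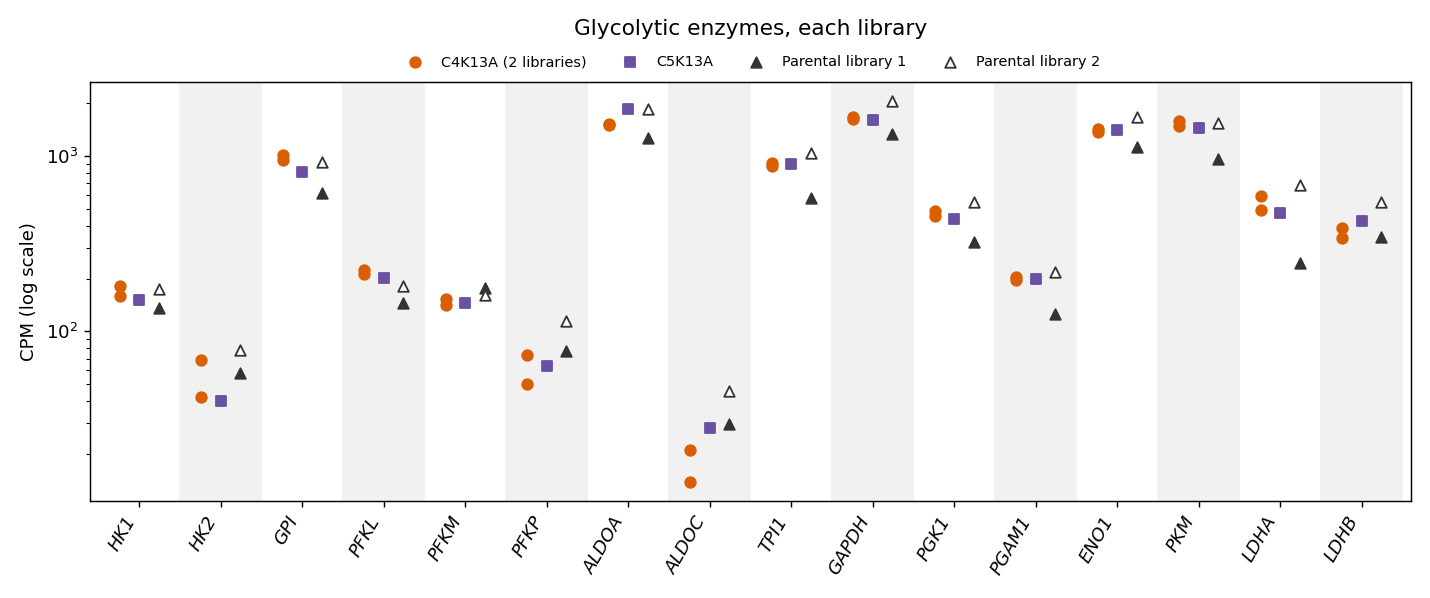
CPM of the 16 glycolytic enzymes in each library, on a log axis, with C4K13A (2 libraries), C5K13A and parental cells side by side for each gene. For LDHA the K13A libraries lie between 473 and 595 CPM, and parental libraries 1 and 2 at 247 and 682 CPM; PFKP and ALDOC lie lower, and PFKL higher, in every K13A library than in both parental libraries.

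The enzyme result therefore depended on which parental library was used. Without parental library 2 the median log2 fold change of the enzymes over all K13A libraries was 0.33, and without parental library 1 it was -0.23, with 0 members called in either fit. In the comparison of C4K13A with parental cells, leaving out parental library 2 gave 6 called members (7.59% of all genes were called there): GPI at 0.68, PGAM1 at 0.68, PKM at 0.68 and LDHA at 1.14 were higher, and BNIP3L at -1.18 and MXI1 at -0.75 were lower, with adjusted p from 0.0110 to 0.0446 in edgeR. For C5K13A the same step gave 3 called members (3.04% of all genes), LDHA at 0.93, PDK3 at 1.31 and BNIP3L at -1.41, with adjusted p of 0.0495, 0.0352 and 0.0263. Leaving out parental library 1 instead gave 1 called member in C4K13A, ALDOC at -1.39 with an adjusted p of 0.0262 (1.38% of all genes). In these fits the lone parental library is assumed to vary like the C4K13A libraries.

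**Figure D2:**
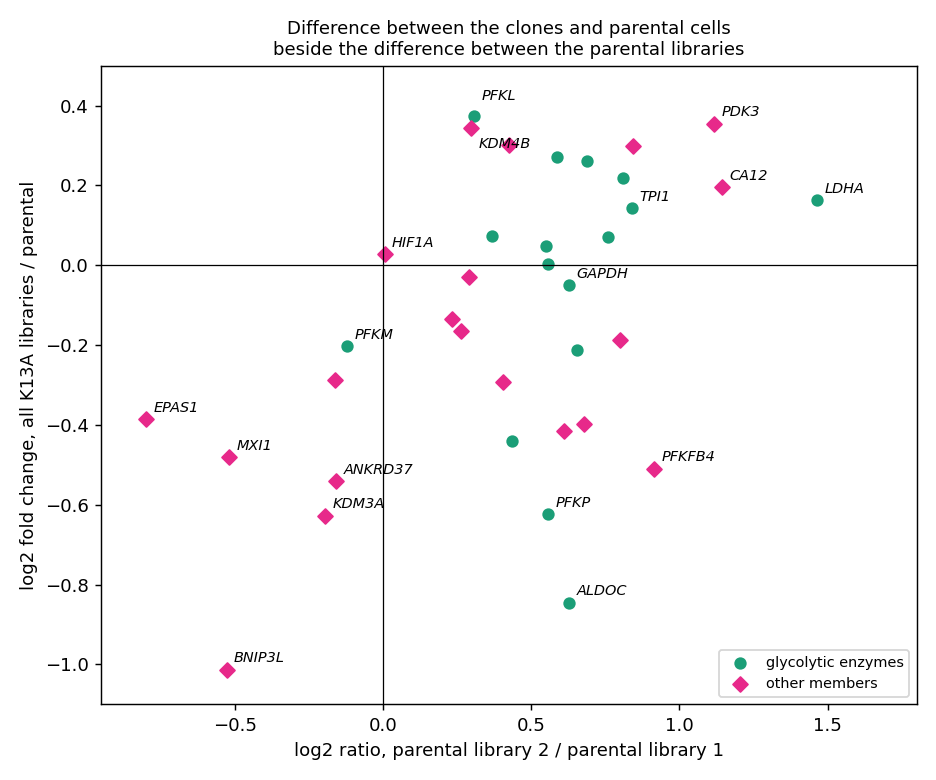
For each member tested except SLC2A3, the log2 ratio of parental library 2 to parental library 1 (x axis) and the log2 fold change of all K13A libraries over parental cells (y axis); both axes use the parental libraries. The enzymes lie to the right of 0 except PFKM, with LDHA farthest at a ratio of 2.76, while BNIP3L has the lowest fold change, -1.01.

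Among the enzymes that catalyse the committed step, the 3 phosphofructokinase subunits differed in direction. PFKL, the liver-type subunit (ENSG00000141959), had 212 and 223 CPM in the C4K13A libraries and 201 CPM in C5K13A, against 146 and 181 CPM in parental cells. PFKP, the platelet-type subunit (ENSG00000067057), had 73.5 and 50.1 CPM in the C4K13A libraries and 63.3 CPM in C5K13A, against 77.6 and 114 CPM in parental cells. PFKM, the muscle-type subunit, had 154 and 141 CPM in the C4K13A libraries and 145 CPM in C5K13A, against 176 and 162 CPM in parental cells. In GENCODE v29 (GRCh38) PFKL lies on chromosome 21 at 44300051 to 44327376 and PFKP on chromosome 10 at 3066333 to 3137712. The groups did not overlap in any of the 3, with PFKL higher and PFKP and PFKM lower in the K13A libraries. Of all genes, 13.8% lay higher and 14.7% lower without overlap. Neither PFKL, at 0.37 ± 0.16 (fitted log2 fold change ± SE, edgeR adjusted p = 0.452), nor PFKP, at -0.62 ± 0.22 (adjusted p = 0.363), was called. PFKP was called without a filter on low counts (adjusted p = 0.0296, 3.12% of all genes). Its fold change was -0.32 without parental library 2, and that of PFKL was 0.23 without parental library 1.

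As a share of the 3 subunits, per length of each gene's principal transcript, PFKL made up 49.1% and 55.0% in C4K13A and 50.1% in C5K13A, against 37.5% and 40.0% in parental cells. PFKP made up 18.7% and 13.6% in C4K13A and 17.3% in C5K13A, against 21.8% and 27.7% in parental cells. The shares of both did not overlap between the groups, and with exon lengths of the whole gene in place of the principal transcript they did not overlap either. With 3 libraries against 2 the smallest p that a two-sided exact permutation test of such a share can give is 0.2. A share within a library shows that the subunits differed unequally, not which one changed.

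The aldolases also differed in share. ALDOC, the brain-type aldolase (ENSG00000109107), had 20.9 and 13.9 CPM in the C4K13A libraries and 28.2 CPM in C5K13A, against 29.6 and 45.8 CPM in parental cells. Every K13A library was below both parental libraries, with the C5K13A library close to parental library 1. Per length ALDOC made up 1.12% and 0.728% of both aldolases in C4K13A and 1.22% in C5K13A, against 1.84% and 1.95% in parental cells. Its log2 fold change was -0.85 ± 0.30 over all K13A libraries (edgeR adjusted p = 0.365), -1.11 ± 0.28 in C4K13A (adjusted p = 0.149) and -0.42 ± 0.34 in C5K13A (adjusted p = 0.871). The difference between the clones was 0.70 ± 0.33 and was not called (adjusted p = 0.815). Over all K13A libraries ALDOC was called without a filter on low counts (adjusted p = 0.00203). In C4K13A it was called by DESeq2 (adjusted p = 0.00966), by edgeR without a filter (6.75e-05; 3.6% of all genes) and by edgeR when the split by ribosomal RNA entered the fit (0.0447; 3.42%). That fit also called BNIP3L. Over all K13A libraries the fold change was -0.50 without parental library 2.

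The remaining isozymes showed groups that overlapped. HK2, the inducible hexokinase that starts glycolysis, had 68.5 and 42.2 CPM in the C4K13A libraries and 40.0 CPM in C5K13A, against 57.9 and 78.3 CPM in parental cells. Its fold change was -0.44 ± 0.26 (edgeR adjusted p = 0.570), and it was -0.73 without C4K13A library 1 and -0.21 without parental library 2. Per length HK2 made up 21.3% and 12.6% of HK1 and HK2 together in C4K13A and 14.2% in C5K13A, against 21.0% and 21.8% in parental cells. HK1, the constitutive hexokinase, had 158 and 182 CPM in the C4K13A libraries and 151 CPM in C5K13A, against 136 and 176 CPM in parental cells. LDHA made up 49.4% and 47.9% of both lactate dehydrogenase subunits per length in C4K13A and 41.2% in C5K13A, against 31.2% and 44.3% in parental cells, where parental library 1 alone stood low. LDHB, the heart-type subunit, had 387 and 341 CPM in the C4K13A libraries and 429 CPM in C5K13A, against 347 and 547 CPM in parental cells.

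**Figure D3:**
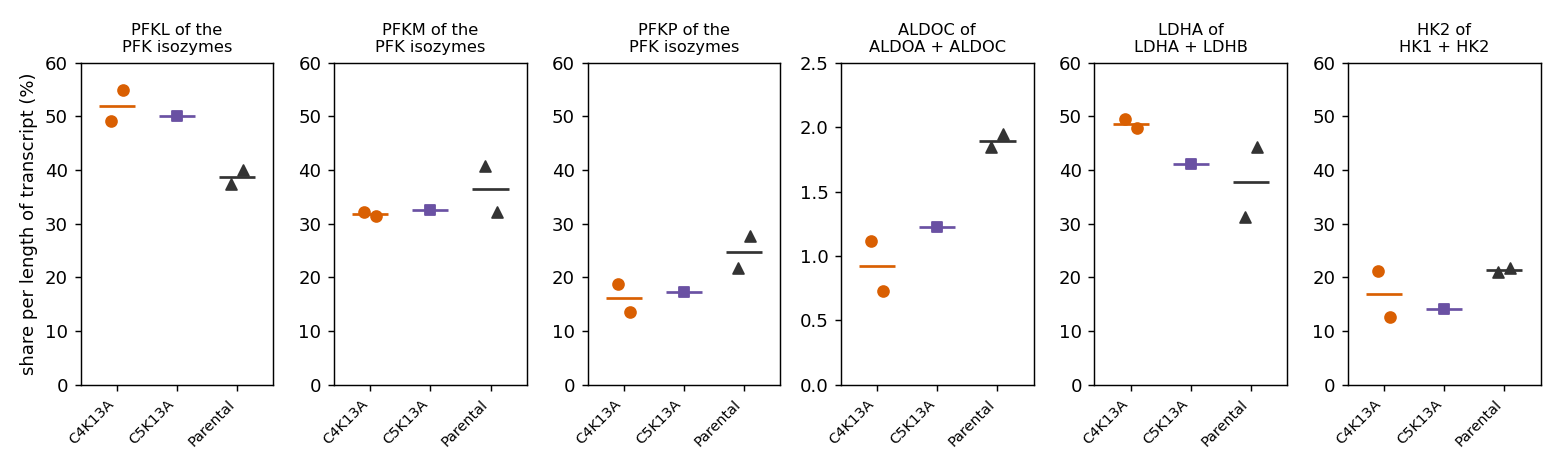
Share (%) of single isozymes within their family, per length of principal transcript, in C4K13A (2 libraries), C5K13A (1) and parental cells (2); points are libraries, lines are means, and the ALDOC panel has its own scale. PFKL lies at 49.1% to 55.0% in the K13A libraries and at 37.5% and 40.0% in parental cells, and ALDOC at 0.728% to 1.22% and at 1.84% and 1.95%.

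Among the enzymes not yet described, GPI, the glucose phosphate isomerase, had 956 and 1018 CPM in the C4K13A libraries and 807 CPM in C5K13A, against 614 and 922 CPM in parental cells. PKM, a pyruvate kinase, had 1596 and 1488 CPM in the C4K13A libraries and 1441 CPM in C5K13A, against 964 and 1552 CPM in parental cells. Both C4K13A libraries exceeded both parental libraries in GPI (0.36 ± 0.23 in C4K13A, edgeR adjusted p = 0.585), while C5K13A lay between them. Several enzymes have processed pseudogenes that can share reads: over all libraries the 62 pseudogenes named for GAPDH held 28009 counts beside 406464 for GAPDH, and the 4 named for TPI1 held 7412 beside 208025 for TPI1. How reads with several alignments were treated is not given in the sources used here.

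Levels can be compared between genes only per length. By mean CPM per kilobase of principal transcript over all libraries, ALDOA stood first at 1001, followed by GAPDH at 888, TPI1 at 698, ENO1 at 598 and PKM at 518. The first non-enzyme in the order was BNIP3 at 43.5, in place 14 of 39. ALDOA ran from 934 to 1152 CPM per kilobase in the K13A libraries and from 796 to 1165 in parental cells, and GAPDH from 860 to 892 and from 712 to 1100, so these neighbours overlap. CA9, ADM, SLC2A3 and EPAS1 were the members with the fewest counts.

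Of the glucose transporters, SLC2A1 was expressed and SLC2A3 nearly not. SLC2A1, the basal transporter GLUT1 (ENSG00000117394), had 82.3 and 79.4 CPM in the C4K13A libraries and 82.2 CPM in C5K13A, against 85.8 and 113 CPM in parental cells. Every K13A library was below both parental libraries, with parental library 1 close to them (-0.29 ± 0.16). SLC2A3, the high-affinity transporter GLUT3, had 56 and 22 counts in C4K13A and 0 counts in C5K13A, against 44 and 22 counts in parental cells. The bounds set a group with 0 counts to a floor of 3 and take the counts of the other group as exact. So bounded, C5K13A was at least 8.44-fold lower than parental cells (edgeR adjusted p = 0.335) and at least 11.8-fold lower than C4K13A (adjusted p = 0.266). Neither was called, except without a filter, where the adjusted p was 9.18e-04 (1.54% of all genes) and 2.87e-04 (1.13%). With the counting error of both groups, the exact 95% interval of the ratio reached up to 0.150 against parental cells and 0.107 against C4K13A, which is a weaker bound. Such bounds, and the counting intervals given for other genes, cover counting error only, as PCR copies of a molecule could not be told apart. Over all libraries the 3 pseudogenes named for SLC2A3 held 62 counts beside 144 for SLC2A3. The bounds do not cover reads shared with them.

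The regulators of glycolytic flux overlapped between the groups. PDK1, a pyruvate dehydrogenase kinase that diverts pyruvate from mitochondria, had 32.7 and 23.6 CPM in the C4K13A libraries and 22.4 CPM in C5K13A, against 27.7 and 42.3 CPM in parental cells. PDK3, another such kinase, had 22.2 and 28.7 CPM in the C4K13A libraries and 35.3 CPM in C5K13A, against 14.2 and 30.8 CPM in parental cells. PFKFB3 and PFKFB4 make the phosphofructokinase activator fructose 2,6-bisphosphate. PFKFB3 had 25.6 to 32.8 CPM in the K13A libraries against 23.6 and 41.0 CPM in parental cells, and PFKFB4 had 9.39 to 14.2 CPM against 12.3 and 23.2 CPM. In each of the 4, parental library 2 was the higher parental library, by 1.53-fold to 2.17-fold.

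Among the other hypoxia genes that passed the filter for all K13A libraries, which ADM and CA9 did not, the lowest fold change was that of BNIP3L, the mitophagy receptor also called NIX (ENSG00000104765). BNIP3L had 52.4 and 40.2 CPM in the C4K13A libraries and 39.4 CPM in C5K13A, against 105 and 72.8 CPM in parental cells. All K13A libraries were below both parental libraries. The means were 44.0 ± 7.29 CPM and 88.8 ± 22.7 CPM (SD, n = 3 and n = 2), and the log2 fold change was -1.01 ± 0.21 (edgeR adjusted p = 0.156). BNIP3L was at -0.94 ± 0.23 in C4K13A (adjusted p = 0.148) and at -1.17 ± 0.30 in C5K13A (adjusted p = 0.448). DESeq2 called it over all K13A libraries (adjusted p = 0.00340), in C4K13A (0.0146) and in C5K13A (0.0223), and edgeR without a filter called it in each of the 3 (7.20e-06, 4.85e-04 and 0.00192). Its fold change over all K13A libraries was -0.72 without parental library 1 and -1.25 when parental library 2 was left out (adjusted p = 0.786 and 0.0714). BNIP3, its relative, differed less: 135 and 102 CPM in the C4K13A libraries and 94.4 CPM in C5K13A, against 112 and 179 CPM in parental cells (-0.40 ± 0.24).

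KDM3A and KDM4B, both histone lysine demethylases induced by HIF, differed in direction. KDM3A, whose promoter is printed above (ENSG00000115548), had 21.8 and 19.3 CPM in the C4K13A libraries and 19.1 CPM in C5K13A, against 33.0 and 28.9 CPM in parental cells. KDM4B had 176 and 188 CPM in the C4K13A libraries and 174 CPM in C5K13A, against 127 and 155 CPM in parental cells. Neither overlapped between the groups, beside 13.8% of all genes that lay higher and 14.7% that lay lower without overlap. KDM3A was at -0.63 ± 0.16 (edgeR adjusted p = 0.229) and KDM4B at 0.34 ± 0.16 (adjusted p = 0.474). DESeq2 called KDM3A over all K13A libraries (adjusted p = 0.0353). By clone KDM3A was at -0.59 ± 0.19 in C4K13A and -0.69 ± 0.24 in C5K13A.

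MXI1, a MAX-binding antagonist of MYC, had 26.1 and 29.01 CPM in the C4K13A libraries and 29.6 CPM in C5K13A, against 46.4 and 32.4 CPM in parental cells. All 3 K13A libraries were below both parental libraries, and parental library 1 stood above all others (-0.48 ± 0.19, edgeR adjusted p = 0.413). Without parental library 1 the fold change of MXI1 was -0.20, and without parental library 2 it was -0.72. ANKRD37, a small ankyrin-repeat protein gene, had 4.137 and 2.999 CPM in the C4K13A libraries and 3.36 CPM in C5K13A, against 5.36 and 4.81 CPM in parental cells (-0.54 ± 0.26). P4HA2, a subunit of collagen prolyl 4-hydroxylase, had 9.73 and 9.76 CPM in the C4K13A libraries and 9.98 CPM in C5K13A, against 10.02 and 12.02 CPM in parental cells.

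In all, 9 of the 37 tested members lay lower in every K13A library than in both parental libraries, as did 14.7% of all genes, and 2 lay higher, as did 13.8%. The 9 were PFKM, PFKP, ALDOC, SLC2A1, BNIP3L, ANKRD37, P4HA2, KDM3A and MXI1, and the 2 were PFKL and KDM4B. Of the 9, 3 were among the 16 enzymes and 6 among the 21 other members tested.

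**Figure D4:**
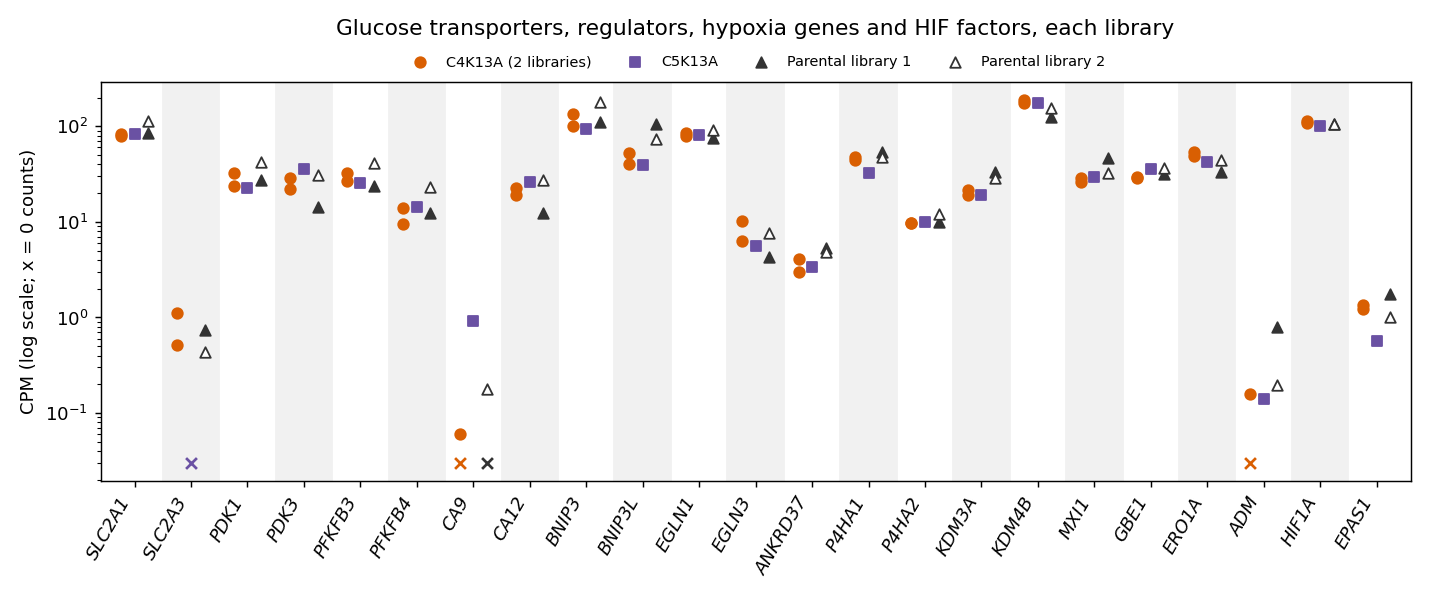
CPM of the 23 other members in each library, on a log axis, with C4K13A (2 libraries), C5K13A and parental cells side by side for each gene; crosses mark libraries with 0 counts. BNIP3L lies at 39.4 to 52.4 CPM in the K13A libraries and at 105 and 72.8 CPM in parental cells, and HIF1A at 101 to 114 CPM and at 106 in both parental libraries.

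EGLN1, EGLN3, P4HA1, GBE1, ERO1A and CA12 had groups that overlapped when all K13A libraries were set against parental cells. EGLN1, the main prolyl hydroxylase that marks HIF alpha subunits, had 79.7 and 84.8 CPM in the C4K13A libraries and 81.4 CPM in C5K13A, against 75.2 and 92.0 CPM in parental cells. EGLN3, a hydroxylase that is itself induced by HIF, had 10.3 and 6.30 CPM in the C4K13A libraries and 5.60 CPM in C5K13A, against 4.30 and 7.72 CPM in parental cells. P4HA1, a collagen prolyl 4-hydroxylase subunit, had 48.0 and 43.9 CPM in the C4K13A libraries and 32.7 CPM in C5K13A, against 53.5 and 47.8 CPM in parental cells, with the C5K13A library lowest (-0.63 ± 0.22 against parental, edgeR adjusted p = 0.685; -0.49 ± 0.22 against C4K13A, adjusted p = 0.792). GBE1, the glycogen branching enzyme, had 28.5 to 35.6 CPM in the K13A libraries against 31.5 and 37.0 CPM in parental cells, and ERO1A, the oxidase of disulphide formation in the endoplasmic reticulum, 42.3 to 53.9 CPM against 33.4 and 44.8 CPM. CA12, a membrane carbonic anhydrase, had 18.9 to 26.1 CPM against 12.3 and 27.2 CPM.

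CA9 and ADM, which are strongly induced by hypoxia in many cell types, were close to absent. CA9 (ENSG00000107159) had 3 and 0 counts in C4K13A and 39 counts in C5K13A, against 0 and 9 counts in parental libraries 1 and 2. With the libraries of each group pooled, the ratio of C5K13A to parental cells was 11.3, with an exact 95% counting interval of 5.38 to 26.5. That of C5K13A to C4K13A was 28.6, with an interval of 9.09 to 145. Both intervals cover counting error only and not the spread between libraries or clones, and C5K13A has only 1 library. C5K13A alone carried most of the CA9 reads, and it reached 0.922 CPM. CA9 passed the filter of the 3-group fit through that library, and the difference between the clones was not called (edgeR adjusted p = 0.716), except without a filter (0.00944). ADM, the vasodilator adrenomedullin, had 8 and 0 counts in C4K13A and 6 counts in C5K13A, against 47 and 10 counts in parental cells. Pooled, ADM in C4K13A was at 0.166 of the parental level, with an interval of 0.0685 to 0.350, and the edgeR test did not call it (adjusted p = 0.477). Parental library 1 held most of the ADM reads, and ADM passed the filter of the 3-group fit through that library.

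HIF1A overlapped between all K13A libraries and parental cells, and EPAS1 was low. HIF1A, the broadly expressed alpha subunit (ENSG00000100644), had 114 and 109 CPM in the C4K13A libraries and 101 CPM in C5K13A, against 106 CPM in each parental library. Both C4K13A libraries were above, and the C5K13A library below, the parental libraries. The fold change over all K13A libraries was 0.03 ± 0.14 (edgeR adjusted p = 0.963). EPAS1, which encodes HIF-2 alpha, had 1.36 and 1.23 CPM in the C4K13A libraries and 0.567 CPM in C5K13A, against 1.748 and 1.005 CPM in parental cells. EPAS1 had 24 counts in C5K13A, and its difference from C4K13A was -1.19 ± 0.59 (adjusted p = 0.832). Per length EPAS1 made up 0.422% to 0.898% of both factors in the K13A libraries, and 1.24% and 0.713% in the parental ones. The strand setting is not given, so reads of HIF1A and its antisense transcript HIF1A-AS1 cannot be told apart. The same limit holds for other members whose exons overlap those of a gene on the opposite strand. Among them are BNIP3L (PNMA2 and SDAD1P1), ALDOC (AC005726.4), PFKM (SENP1), ANKRD37 (UFSP2), MXI1 (AL360182.2), P4HA2 (P4HA2-AS1), SLC2A1 (SLC2A1-AS1), HK2 (AC019069.1) and CA9 (ARHGEF39). Exons of some members overlap a gene on the same strand, which no strand setting separates. They are PFKP (AL451164.3), ALDOA (AC093512.2), GPI (AC092073.1), SLC2A1 (AC099795.1), PGK1 (AL356235.1 and ATP7A), LDHB (AC010197.2), PFKFB4 (UCN2) and HIF1A (AL137129.1).

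Clone by clone, none of the 39 members was called in C4K13A against parental cells (0.699% of 22743 genes were), in C5K13A against parental cells (0.0484%) or in C5K13A against C4K13A (0.066%) by edgeR. These comparisons share the parental or the C4K13A libraries. At an unadjusted p under 0.05 there were 5 lower and 0 higher members in C4K13A (12.2% of all genes in either direction), 4 lower and 0 higher in C5K13A (6.45%), and 1 of each between the clones (6.42%). DESeq2 called 2 members in C4K13A (3.28% of all genes), ALDOC and BNIP3L, 1 in C5K13A (1.03%), BNIP3L, and 0 between the clones (0.8%), and limma-voom called 0 in each (0.378% of all genes in C4K13A, and 0 genes in both others). Without overlap of libraries, 5 members lay higher and 11 lower in C4K13A than in parental cells, as did 21.1% and 23% of all genes. The 11 include ADM, which passed the filter through parental library 1. Between the clones the enzymes with the smallest adjusted p after ALDOC were HK2 at -0.47 ± 0.33 (0.913), ALDOA at 0.29 ± 0.27 (0.965) and GPI at -0.29 ± 0.28 (0.970) in edgeR. The enzyme median was 0.05 in C4K13A, 0.0046 in C5K13A and -0.03 between the clones, beside -0.01, -0.03 and -0.03 over all genes. The median of the other members was -0.18, -0.32 and -0.09.

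**Figure D5:**
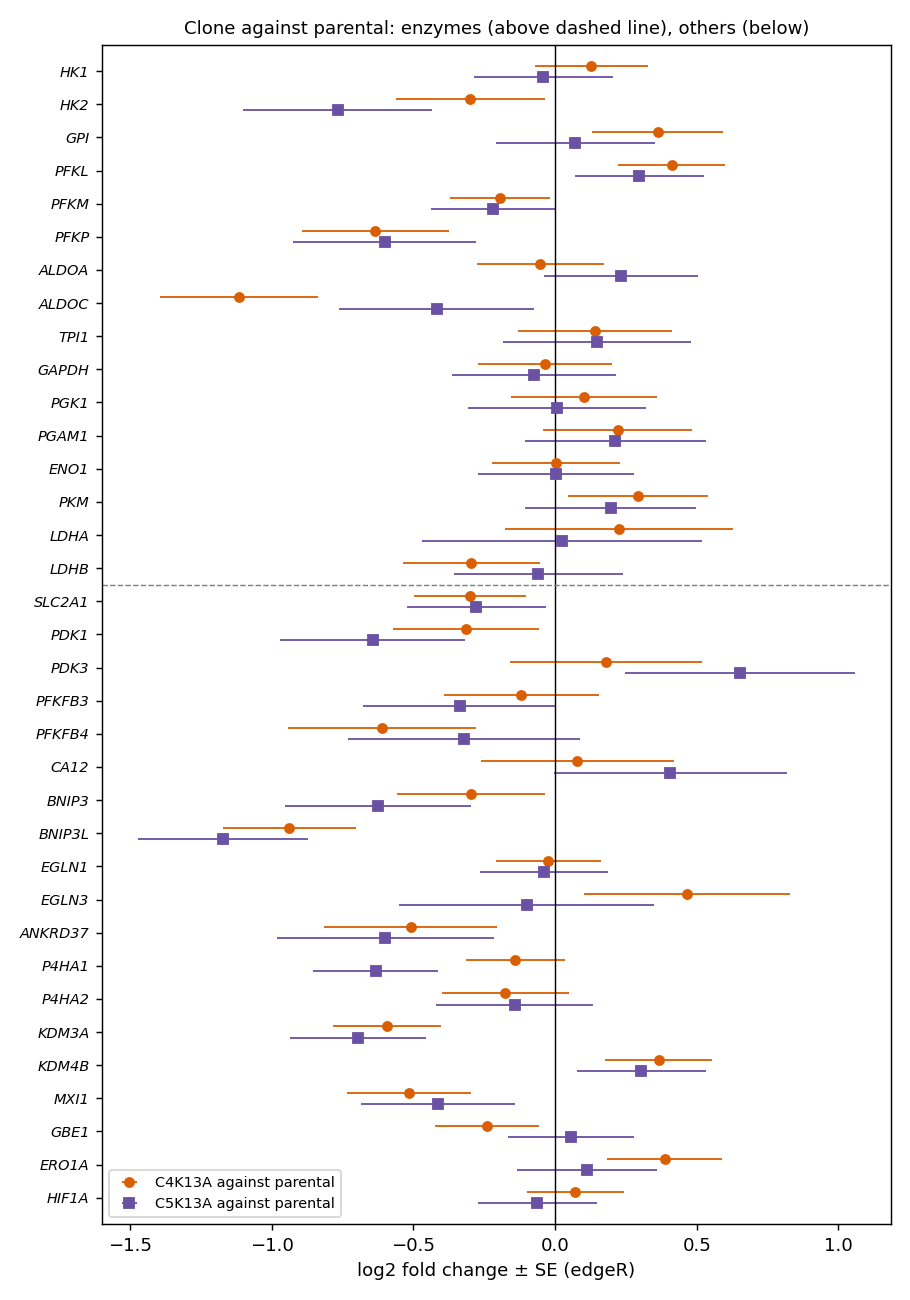
Fitted log2 fold change ± SE of each clone against parental cells, with the enzymes above the dashed line and the other members below it; CA9, ADM, SLC2A3 and EPAS1 are left out for their low counts. BNIP3L is at -0.94 in C4K13A and -1.17 in C5K13A, while ALDOC is at -1.11 and -0.42; both clones are compared with the same parental libraries.

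Of 34 further HIF targets, 32 passed the filter in the clone-by-clone fit. In C4K13A 3 of them were called lower, where 0.602% of all genes were called lower. The 3 were VEGFA, the angiogenic growth factor, PGM1, phosphoglucomutase, and BHLHE40, a transcriptional repressor. The list was chosen with earlier results of these data known, so this count beside that share is no test of HIF targets. VEGFA had 47.3 and 38.6 CPM in C4K13A, against 239 and 155 CPM in parental cells (-2.20 ± 0.25, edgeR adjusted p = 0.0124). PGM1, which links glucose 6-phosphate to glycogen, had 14.99 and 13.67 CPM in C4K13A, against 37.9 and 40.8 CPM in parental cells (-1.46 ± 0.18, adjusted p = 0.0175). BHLHE40 had 34.5 and 34.6 CPM in C4K13A, against 76.4 and 108 CPM in parental cells (-1.41 ± 0.21, adjusted p = 0.0315). Both C4K13A libraries were below both parental libraries in all 3, as they were in 23% of all genes. C5K13A had 69.7 CPM of VEGFA, 27.1 CPM of PGM1 and 48.9 CPM of BHLHE40, and none was called there (VEGFA at -1.50 ± 0.32, adjusted p = 0.284). Over all K13A libraries 0 of 31 were called, with 1 higher and 7 lower at an unadjusted p under 0.05, beside 11% of all genes in either direction, and the median of the list was -0.19. BHLHE40 missed the threshold without C4K13A library 1 (adjusted p = 0.0572), without C4K13A library 2 (0.0830) and with a stricter filter (0.0544), PGM1 without C4K13A library 2 (0.0735), and VEGFA with the stricter filter (0.0513).

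The machinery that controls HIF had no called member in any comparison, with 13 of 14 tested and a median of -0.03 over all K13A libraries. VHL, the substrate receptor of the ubiquitin ligase for HIF alpha, had 59.9 and 52.5 CPM in the C4K13A libraries and 61.5 CPM in C5K13A, against 77.9 and 72.3 CPM in parental cells (-0.37 ± 0.15, edgeR adjusted p = 0.413). SIAH2, a ubiquitin ligase that acts on prolyl hydroxylases, had 35.0 and 42.1 CPM in the C4K13A libraries and 46.5 CPM in C5K13A, against 48.2 and 61.8 CPM in parental cells (-0.42 ± 0.18, adjusted p = 0.458). Every K13A library was below both parental libraries in both genes, as in 14.7% of all genes.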

How the data were processed

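RNA of 5 C4-2B libraries was measured by RNA sequencing after RiboErase depletion of ribosomal RNA, per the labels' protocols. The authors deposited whole-number read counts per Ensembl gene, not normalized. Per the submitters' processing notes they used bcl2fastq, STAR 2.5 and featureCounts 1.4.6-p5. Neither genome build nor annotation nor strand setting is stated there or in the labels. Symbols came from a table of gene names, and lengths and overlaps from GENCODE v29 (GRCh38).

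Counts were fitted over all genes with edgeR 4.0.16 under R 4.3.3 (TMM factors, the default filterByExpr, estimateDisp, glmQLFit and glmQLFTest; Benjamini-Hochberg threshold 0.05). K13A against parental used 2 groups, and the comparisons by clone 1 fit of 3 groups. The lone C5K13A library is there assumed to vary like the others. SE is the size of the fold change over the root of F. Alternatives used DESeq2 1.42.0, limma-voom 3.58.1, other factors and filters, summed C4K13A libraries, a replicate block, and each library left out. A further alternative was a ribosomal RNA covariate split at 200 CPM. This split and the stricter filter of 5 CPM used raw library totals, without TMM factors.

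The members, lists and split were chosen with earlier results of these data known. Over all K13A libraries, fold changes with tests are given for the 4 enzymes and 4 other members with the smallest adjusted p. In the comparisons by clone they are given for only part of the members so ranked. Others are given for description. No libraries were duplicates. The luminal marker list is reported here without 2 of its genes.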

Additional observations from a re-analysis of the deposited data

How the results depend on the processing

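The sign was checked for the 4 enzymes and 4 other members with the smallest adjusted p in each comparison. None of these fold changes changed sign under any alternative run. LDHA in C4K13A was not among them: its mean of 544 CPM lay between the parental libraries at 247 and 682 CPM. With main counts of 42, 159, 11 and 15 called genes (all K13A libraries, C4K13A and C5K13A against parental, and C5K13A against C4K13A), no filter gave 1167, 1346, 578 and 423, DESeq2 555, 745, 235 and 182, limma-voom 11, 86, 0 and 0, the stricter filter of 5 CPM 2, 32, 0 and 0, and the ribosomal RNA split as a covariate 71, 777, 105 and 92. Summing the C4K13A libraries gave 11 genes over all K13A libraries. Leaving out 1 library gave 0 to 130, 130 to 1667, 41 to 668 and 51 to 155 genes. Called members, 0 in each comparison, numbered 3, 2, 2 and 2 without a filter and 2, 2, 1 and 0 with DESeq2, and 2 in C4K13A with the ribosomal RNA split, ALDOC (adjusted p = 0.0447) and BNIP3L (0.0183). Without 1 library they numbered 0 to 6 in C4K13A and 0 to 3 in C5K13A. The enzyme median ran from -0.23 to 0.33 over all K13A libraries, from -0.24 to 0.31 in C4K13A and from -0.23 to 0.35 in C5K13A, and that of the other members from -0.31 to -0.020 over all K13A libraries (-0.020 without parental library 2), from -0.33 to 0.022 in C4K13A and from -0.46 to -0.064 in C5K13A. A fit with the replicate block on C4K13A and parental libraries called 885 of 20358 genes (4.35%) and 2 members, ALDOC (0.0269) and BNIP3L (0.0114). For these libraries the block is the same division as the ribosomal RNA split, so both fits are 1 alternative and not 2. Same-numbered libraries deviated together with r = 0.154 over genes, and with 2 pairs and no label saying so, the numbers are not taken as a pairing. The causes were not tested. RLE factors called 0 members in each comparison. Both comparisons of C5K13A have no value without its only library. CA9, ADM and SLC2A3 had few counts, and libraries of 1 group differed in them, as ADM with 47 and 10 counts in parental libraries 1 and 2. Their intervals and bounds cover counting error only, so no direction is drawn from them.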

Other observations

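Genes that carry glucose carbon beside or beyond the glycolytic steps were read in the same fits, and none was called in any of the 4 comparisons by edgeR: 0 of 16 side-branch genes, 0 of 15 tested genes of pyruvate and lactate handling, 0 of 9 tested further glycolytic isozymes and 0 of 7 tested further glucose transporters over all K13A libraries, of which 1, 2, 3 and 2 had an unadjusted p under 0.05, beside 11% of all genes. TKT, the transketolase of the pentose phosphate pathway, had 417 and 418 CPM in the C4K13A libraries and 827 CPM in C5K13A, against 695 and 950 CPM in parental cells (-0.98 ± 0.21 in C4K13A against parental, adjusted p = 0.0973; 0.99 ± 0.25 in C5K13A against C4K13A, adjusted p = 0.413). PCK2, the mitochondrial phosphoenolpyruvate carboxykinase, had 93.6 and 148 CPM in the C4K13A libraries and 228 CPM in C5K13A, against 258 and 313 CPM in parental cells (-0.87 ± 0.32, adjusted p = 0.389). SLC16A7, a monocarboxylate transporter, had 23.4 and 44.3 CPM in the C4K13A libraries and 57.9 CPM in C5K13A, against 15.61 and 25.97 CPM in parental cells (1.01 ± 0.38, adjusted p = 0.392). ENO2, the neuronal enolase, had 2.02 and 1.81 CPM in the C4K13A libraries and 2.67 CPM in C5K13A, against 9.38 and 3.53 CPM in parental cells (-1.58 ± 0.42, adjusted p = 0.239). SLC2A4, the insulin-responsive transporter GLUT4, had 3.78 and 4.18 CPM in the C4K13A libraries and 4.18 CPM in C5K13A, against 10.1 and 6.26 CPM in parental cells (-1.01 ± 0.27, adjusted p = 0.239). Of the other genes that came first or next in their lists, PYGL, a glycogen phosphorylase, had 8.79 to 12.7 CPM in the K13A libraries against 12.1 and 23.5 CPM in parental cells, and PYGB, another, 166 to 197 CPM against 307 and 185 CPM. PFKFB1, another bifunctional regulator of phosphofructokinase, had 0.232 to 0.284 CPM against 0.924 and 0.670 CPM, and SLC2A12, a glucose transporter, 2.74 to 6.46 CPM against 18.7 and 5.44 CPM, with parental library 1 the highest.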
